A study of Caenorhabditis elegans with 4 samples.

Results

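Genes of the precuticle and the apical extracellular matrix were followed in whole wild-type hermaphrodites of the nematode Caenorhabditis elegans fed on 2 foods. The genes are noah-1, noah-2, lpr-3, lpr-5, let-653, fbn-1, dex-1, dyf-7, sym-1 and let-4, taken by name as 10 of the 46904 genes in the deposited count tables. They were chosen with earlier results of this same comparison known, so their differences between the foods are given as a description and not as a test. All 4 libraries came from the Bristol N2 strain, the standard laboratory strain. The control group was fed OP50, the Escherichia coli strain on which worms are usually kept, and the other group is labelled OP50 + MH-1, for OP50 with Lactiplantibacillus sp. MH-1, a lactic acid bacterium. Each group had 2 libraries of poly(A) RNA from about 200 worms, with total counts between 15771890 and 21572225. The labels disagree on age and feeding, with 4-day-old worms after 1 day on the food in the series text and 1-day-old worms kept for 2 days in the sample protocols, and they name MH-1 sometimes with and sometimes without OP50.

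Sample titles and table headers contradict each other, since each count column carries the name of the opposite food. The titles were followed here: the libraries titled OPd4 are called the OP50 libraries, those titled OPMHd4 the MH-1 libraries, and "higher" means higher in the MH-1 libraries. If the headers are right, every direction turns and the sizes stay. The worms were taken whole, so a higher level may come from more cells or eggs that use a gene or from more RNA per cell, and these cannot be told apart. Nothing in the labels says that replicates came from separate cultures, so errors measure only the spread between these libraries.

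Before a worm lays down a collagen cuticle, its epithelia secrete a transient matrix on their outer, apical face, called the precuticle, and embryos are wrapped in a similar layer, the embryonic sheath. This matrix is rich in proteins with a zona pellucida (ZP) domain, which can assemble into filaments, and holds secreted lipocalins, small lipid-binding proteins, and proteins with extracellular leucine-rich repeats. It is known for shaping the elongating embryo, for keeping narrow tubes such as the excretory duct open, and for anchoring the tips of sensory dendrites. It is made mainly in embryos and again around each larval molt.

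All 10 genes were higher in the MH-1 libraries, with both of these libraries above both OP50 libraries for each gene. Of all tested genes, 24.4% had both libraries above both in this direction. Levels are given as CPM, the reads of a gene among 1000000 reads of the library, scaled by TMM. Together the 10 genes took 129 and 77.1 CPM in the OP50 libraries, and 452 and 359 in the others. The fold differences ran from 1.78 for let-653 to 8.13 for lpr-5, and the median log2 fold change was 1.97, against 0.0027 over all 12640 genes tested. All 10 genes passed the filter on low counts. Of these, 9 had an adjusted p under 0.05 in the fit over all genes (edgeR quasi-likelihood test, Benjamini-Hochberg), beside 1.82% of all tested genes in this direction. Since the genes were chosen on this contrast, nothing further is read from that count. It was 4 without MH-1 replicate 1, 5 without MH-1 replicate 2 and 4 with robust dispersion. With robust dispersion dex-1, dyf-7, let-4 and lpr-3 were called. noah-1 and noah-2 were among those lost there (adjusted p = 0.0706 and 0.0900).

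**Figure D1:**
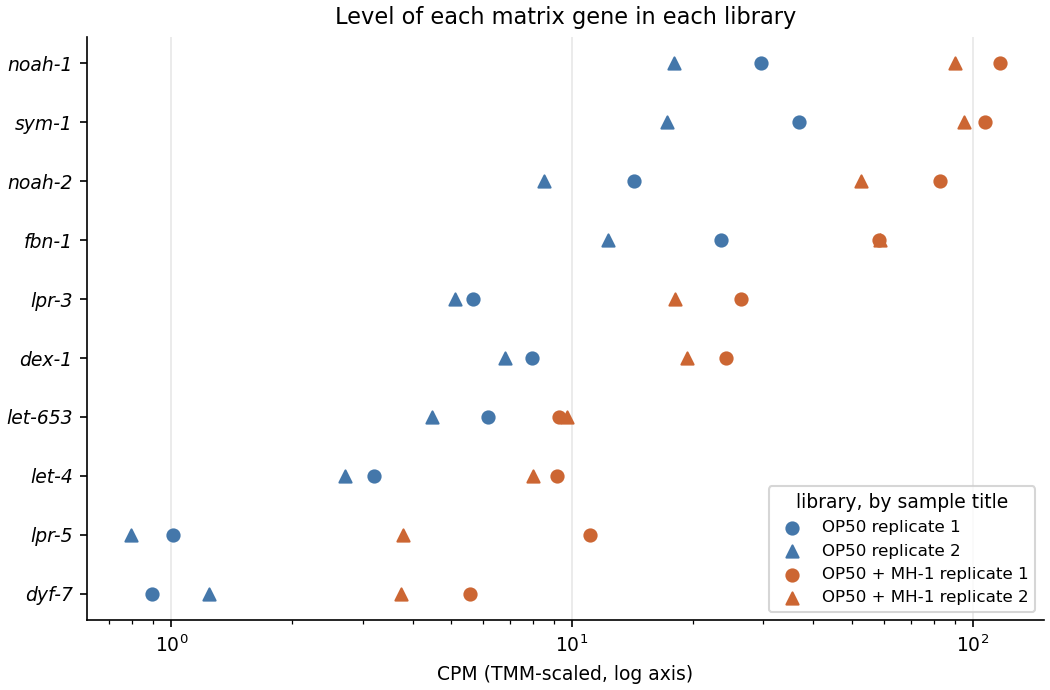
Level of each of the 10 genes in each library, in TMM-scaled CPM, on a log axis; colour gives the group by sample title and symbol the replicate. For every gene both MH-1 libraries lie to the right of both OP50 libraries, with the closest approach for let-653, at 9.29 against 6.17 CPM.

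ZP-domain genes made up 5 of the 10. NOAH-1 and NOAH-2 are ZP proteins of the epidermal apical matrix that link the embryonic sheath to the cells below and help the embryo to elongate. In ce11, noah-1 (WBGene00016422) lies on chromosome I from 5874422 to 5878954, on the minus strand. It was counted at 29.6 and 18 CPM in the OP50 libraries and at 117 and 90.3 CPM in the MH-1 libraries. The lower of the latter was 3.05 times the higher of the former, and the log2 fold change was 2.12 ± 0.23 (SE). Its relative noah-2 (WBGene00009926, chromosome IV, 14091254 to 14096617, plus strand) stood at 14.2 and 8.49 CPM against 82.9 and 52.5 CPM. That is a log2 fold change of 2.57 ± 0.29, the second highest of the 10. The ratio of noah-1 to noah-2 per length was 1.40 and 1.43 in the OP50 libraries, and 0.954 and 1.16 in the MH-1 libraries. With 2 libraries a group this ratio was not tested, and no difference in the balance of the pair is read from it.

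FBN-1, a fibrillin-like ZP protein, helps the embryonic epidermis withstand pulling forces and is a splicing target of the RNA-binding protein MEC-8. Its gene (WBGene00022816, chromosome III, 7625376 to 7641053, plus strand) is the longest of the 10, with a counted length of 9539 bases. It stood at 23.6 and 12.3 CPM in the OP50 libraries, and at 58.5 and 58.8 CPM in the others. Here the OP50 libraries differed by 1.92 times, while the others were almost equal. The log2 fold change was 1.71 ± 0.26, and 2.25 or 1.31 when OP50 replicate 1 or 2 was left out. An exon of upp-1, a gene on the opposite strand, overlaps an exon of fbn-1 in the Ensembl annotation. Its level was 106 and 103 CPM, then 106 and 97.0 CPM, in the same order of libraries, and did not follow that of fbn-1.

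LET-653, a ZP protein that shapes the lumen of the excretory duct, was the gene of the 10 that did not pass. Its gene (WBGene00002827, chromosome IV, 11885530 to 11891081, plus strand) stood at 6.17 and 4.47 CPM against 9.29 and 9.69 CPM. The groups were apart by 1.51 times at their nearest, and the log2 fold change was 0.83 ± 0.23. DYF-7, the ZP protein that holds dendrite tips in place while the cell bodies of sensory neurons migrate, was among the lowest. Its gene (WBGene00001123, chromosome X, 9698678 to 9701679, plus strand) had 16 and 22 reads in the OP50 libraries and 90 and 81 reads in the others. These are 0.897 and 1.25 CPM against 5.57 and 3.74 CPM, a log2 fold change of 2.11 ± 0.38. At this depth the exact 95% Poisson interval of the higher OP50 value runs from 0.780 to 1.89 CPM. That of the lower MH-1 value runs from 2.97 to 4.64 CPM. Both intervals hold counting error only.

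DEX-1 acts with DYF-7 in anchoring dendrite tips and is also found in the matrix of other epithelia. Its gene (WBGene00017028, chromosome III, 5526071 to 5535481, plus strand) was at 7.96 and 6.79 CPM, and at 24.3 and 19.4 CPM in the MH-1 libraries. Among the 10 genes it had the smallest standard error, with a log2 fold change of 1.56 ± 0.18, and values between 1.40 and 1.72 over all settings tried. The annotation terms deposited with the counts list dendrite extension of the amphid sensory organ for 3 genes of the whole table, of which dex-1 and dyf-7 are 2.

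**Figure D2:**
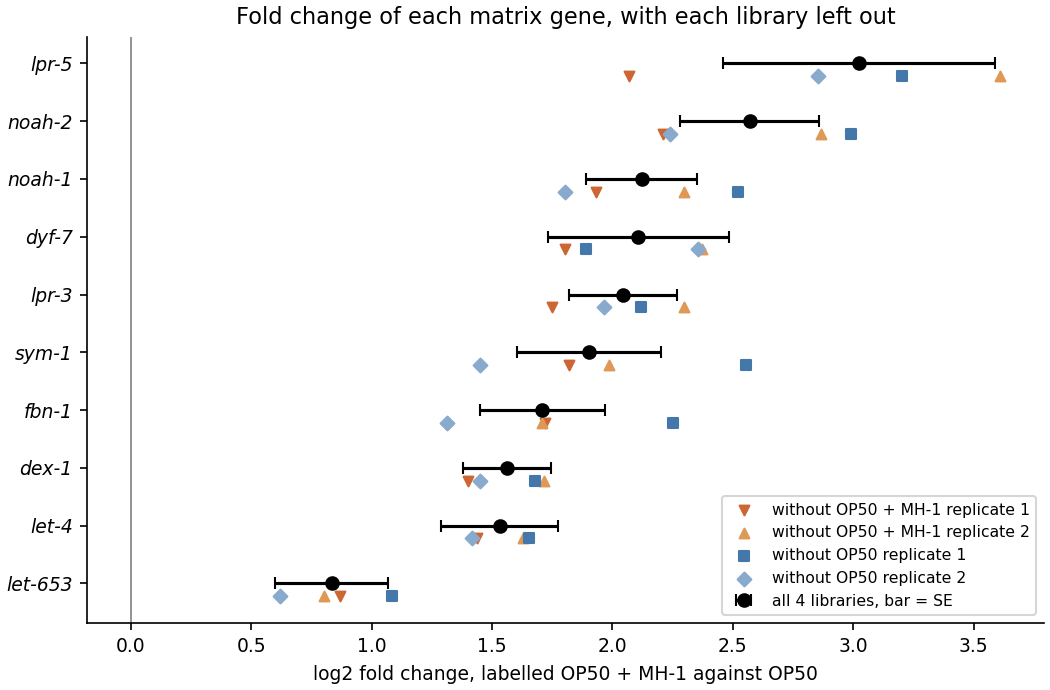
Log2 fold change of each gene between the labelled groups (black, bar = SE), with the value obtained when each library is left out (coloured, drawn just below). All values lie above 0; lpr-5 spans the widest range, from 2.07 without MH-1 replicate 1 to 3.61 without MH-1 replicate 2.

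The lipocalin-related genes lpr-3 and lpr-5 encode secreted proteins that organise the precuticle, and LPR-3 is also needed to keep the excretory duct intact. lpr-3 (WBGene00012261, chromosome X, 11057401 to 11059794, plus strand) stood at 5.66 and 5.09 CPM in the OP50 libraries. In the MH-1 libraries it stood at 26.4 and 18.04 CPM, a log2 fold change of 2.04 ± 0.23. lpr-5 (WBGene00012256, chromosome X, 11062132 to 11064539, plus strand) had only 18 and 14 reads in the OP50 libraries, and 179 and 82 in the others. Its 1.01 and 0.792 CPM compare with 11.1 and 3.78 CPM, so the 2 MH-1 libraries differed from each other by 2.93 times. The fold of 8.13 (log2 3.02 ± 0.57) was 4.19 without MH-1 replicate 1 and 12.2 without MH-1 replicate 2. In the main fit its adjusted p was 0.0495, close to the threshold. lpr-5 was not called with DESeq2 size factors in edgeR (adjusted p = 0.0519), limma-voom (adjusted p = 0.223) or edgeR's robust dispersion (adjusted p = 0.0737).

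These genes sit in a row of 4 lipocalin-related genes on the same strand, in the order lpr-3, lpr-6, lpr-5, lpr-4, with gaps of 199, 263 and 593 bases between them. The genes lpr-6 and lpr-4, which were not among the 10, stood at 1.57 and 1.302 CPM against 12.4 and 4.198 CPM, and at 0.505 and 0.679 CPM against 4.27 and 1.66 CPM. Their log2 fold changes were 2.52 ± 0.54 (adjusted p = 0.0782) and 2.30 ± 0.58 (adjusted p = 0.127), and neither passed. For lpr-6 the value was 1.55 without MH-1 replicate 1. Without MH-1 replicate 2 it was 3.11, with an adjusted p of 0.0137. It was also called with DESeq2 (adjusted p = 0.000143), with total counts as the only scaling (adjusted p = 0.0367), with no filter, and without OP50 replicate 1 or 2. MH-1 replicate 1 was the highest library for all 4 genes of the row. The nearest tested genes on either side had values near 0. C09F12.2, which ends 430 bases before lpr-3, had only 15 reads in each of the 4 libraries (log2 fold change -0.07 ± 0.50). W04G3.5 stood at -0.01 ± 0.12, with apt-9, too low to test, between it and lpr-4. Beyond C09F12.2, clc-1 stood at 0.44 ± 0.18 and did not pass (adjusted p = 0.346). The sources used here do not say how reads that fit several places were counted, so values of these relatives may be split unevenly.

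SYM-1 and LET-4 are proteins with extracellular leucine-rich repeats. SYM-1 is secreted at the apical face of the embryonic epidermis, where it helps body muscles stay attached, and LET-4 spans the membrane and keeps epithelial junctions of the excretory duct and epidermis intact. sym-1 (WBGene00006366, chromosome X, 14581654 to 14584374, plus strand) stood at 36.9 and 17.2 CPM in the OP50 libraries. It reached 107 and 95.0 CPM in the MH-1 libraries, and the log2 fold change was 1.90 ± 0.30. The OP50 libraries differed by 2.14 times, the widest gap of the 10 genes in that group, and the fold of 3.73 became 5.87 without OP50 replicate 1. let-4 (WBGene00002282, chromosome X, 14577935 to 14580921, plus strand) stood at 3.20 and 2.72 CPM against 9.17 and 7.98 CPM, a log2 fold change of 1.53 ± 0.24.

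The 2 genes are next to each other, with 732 bases from the end of let-4 to the start of sym-1. Another gene with such repeats, lron-1, ends 1832 bases before let-4, and was too low to test, with 0 and 6 reads against 20 and 8. Per length, sym-1 was 12.1 and 6.62 times let-4 in the OP50 libraries and 12.2 and 12.4 times in the others. OP50 replicate 2 was thus the 1 library with a lower ratio. The gene C44H4.4 runs across both on the opposite strand and shares exon bases with sym-1. Its level was 24 and 27.6 CPM against 26.5 and 33.9 CPM (log2 fold change 0.23 ± 0.15, adjusted p = 0.554), and the groups overlapped. Of the 10 genes, 5 lie on the X chromosome, which held 14.4% of all genes tested. Of the genes tested on X, 3.40% were called higher.

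**Figure D3:**
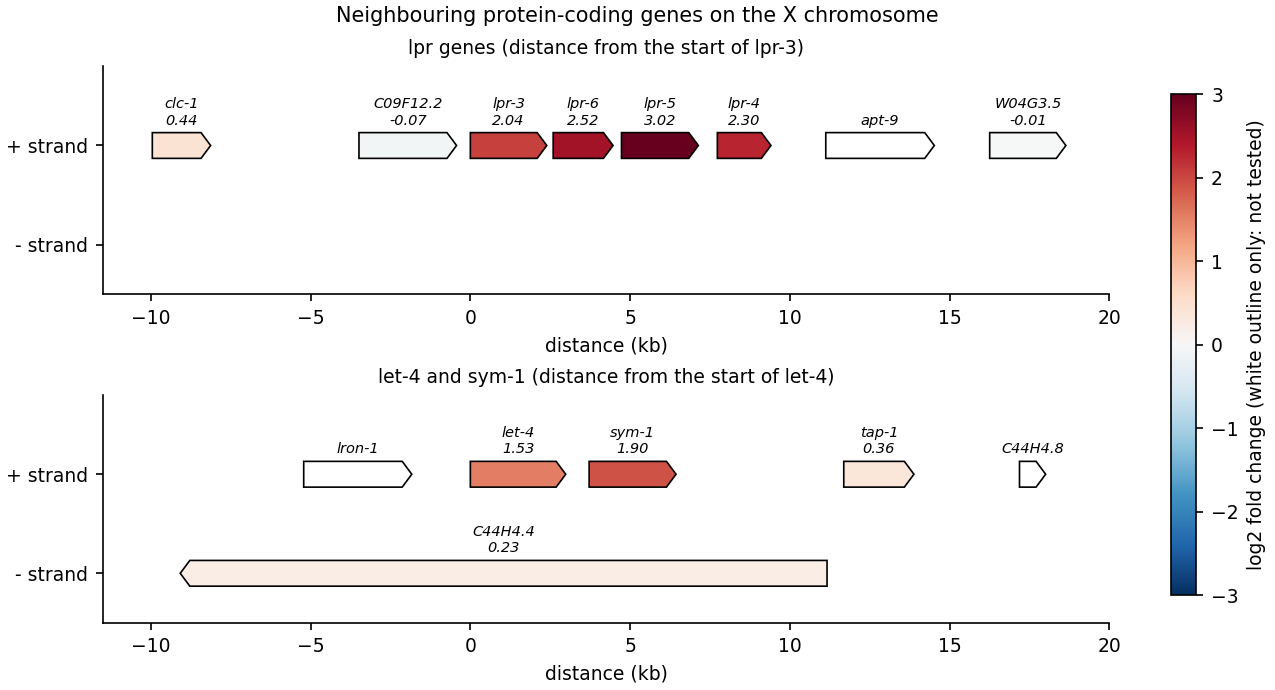
Protein-coding genes around the lpr row (top) and around let-4 and sym-1 (bottom), drawn to scale by distance from the start of lpr-3 or let-4, with colour and number giving the log2 fold change; genes left white with no number were not tested. The 4 lpr genes stand between 2.04 and 3.02. C09F12.2 and W04G3.5, the nearest tested genes on either side, stand at -0.07 and -0.01, and clc-1 farther out at 0.44. The gene apt-9, between lpr-4 and W04G3.5, was not tested.

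Levels of different genes were compared per length, as RPKM, the CPM divided by the gene length in kilobases. In the OP50 libraries, sym-1 led at 11.3 ± 5.80 RPKM (SD, n = 2), followed by noah-1 at 6.29 ± 2.17 and noah-2 at 4.45 ± 1.59 RPKM, and neighbours among these 3 overlapped in their libraries. Next came lpr-3 at 2.60 ± 0.195 RPKM, then let-653, dex-1 and fbn-1 between 1.88 and 1.96 RPKM, with overlapping libraries. let-4 stood at 1.18 ± 0.135, dyf-7 at 0.580 ± 0.133 and lpr-5, the lowest, at 0.417 ± 0.071 RPKM. These 3 did not overlap with their neighbours in the order, but by little. The lowest fbn-1 value was 1.29 RPKM against 1.27 for the highest of let-4. The lowest dyf-7 value was 0.486 RPKM, from 16 reads, against 0.467 for the highest of lpr-5, from 18 reads. The order of these genes is therefore not settled.

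The top 4 genes kept their order in the MH-1 libraries. There sym-1 stood at 42.1 ± 3.61 RPKM (SD, n = 2), above noah-1 at 27.4 ± 4.99 and noah-2 at 26.5 ± 8.41, which overlapped with each other, and lpr-3 followed at 10.8 ± 2.88 RPKM. fbn-1 and dex-1 came next at 6.15 ± 0.0230 and 5.71 ± 0.907 RPKM. let-653, the gene with the smallest difference, went from place 5 to place 7, at 3.49 ± 0.104 RPKM, and lpr-5 from place 10 to place 8, at 3.44 ± 2.39 RPKM. The new place of lpr-5 rests on MH-1 replicate 1, at 5.13 RPKM: in MH-1 replicate 2 it was at 1.75 RPKM, below dyf-7 at 2.02 RPKM. let-653, lpr-5 and let-4 overlapped in their libraries, and dyf-7 was lowest by mean, at 2.52 ± 0.704 RPKM, with libraries that overlapped those of lpr-5.

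**Figure D4:**
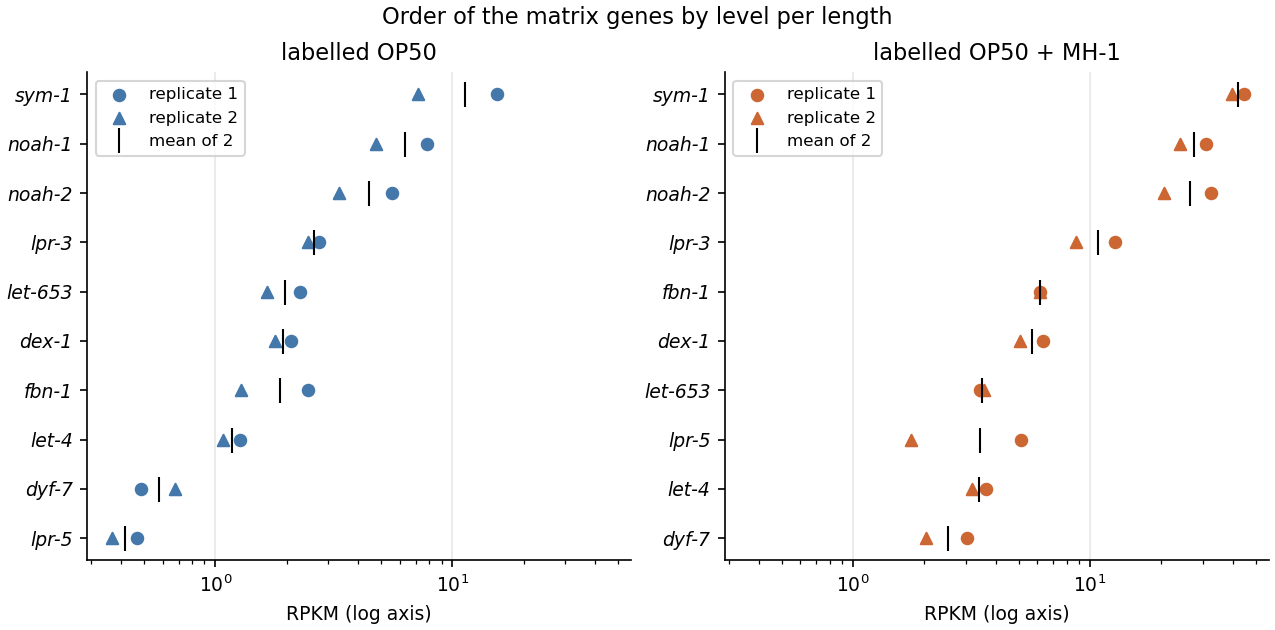
The 10 genes ordered by mean level per length (RPKM, log axis) within each labelled group, with each library as a point and the mean as a bar. The genes sym-1, noah-1, noah-2 and lpr-3 lead in both groups, while all genes from place 5 down except dex-1 change place.

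Libraries of one group also differed from each other in these genes more than in most. The difference in log2 CPM between replicates 1 and 2 had a median size of 0.44 over the 10 genes in the OP50 libraries, against 0.15 over all genes tested. In the MH-1 libraries it was 0.35 against 0.18. The genes behind these background values were not matched to the 10 by level. Counting error widens such differences for genes with few reads, such as lpr-5 and dyf-7. Replicate 1 was the higher library for 9 of the 10 genes in the OP50 group, the exception being dyf-7, and for 8 of 10 in the other group, the exceptions being let-653 and fbn-1. Over all genes, replicate 1 was the higher one in 51.5% and 51.0%. As a mean over the 10 genes, log2 CPM deviated from each gene's own mean by -0.73 and -1.18 in the OP50 libraries, and by 1.17 and 0.74 in the others.

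Related gene families were read from lists that were written with earlier results of these data known. In the remaining ZP-domain cuticlin family, several of whose products form ribbons of the cuticle, 24 of 36 genes were tested. Of these, 6 rose and 0 fell, with a median log2 fold change of 1.52, and 23 of the 24 were above 0. Some of them passed the filter on low counts only through the MH-1 libraries, which favours a positive sign. Such were cut-6, with 4 and 4 reads in the OP50 libraries against 41 and 12, and cutl-11, with 0 and 2 against 9 and 22. Of the 6 called, cutl-20 also needed the MH-1 libraries to pass, with 15 and 6 reads in the OP50 libraries against 76 and 72. The median of 1.52 includes them. The background for rises over all genes is the 1.82% given above, and 0.332% for falls. By sign alone, 6368 of the 12640 genes tested were above 0 and 6272 below, which is the background for the sign counts of all lists. cutl-28 went from 0.928 ± 0.432 to 6.67 ± 3.36 CPM (SD, n = 2; log2 fold change 2.83 ± 0.50, adjusted p = 0.0425), cutl-2 from 2.64 ± 1.81 to 18.5 ± 8.46 CPM and cutl-20 from 0.590 ± 0.355 to 4.01 ± 0.980 CPM. Single libraries moved these folds: without OP50 replicate 1 that of cutl-2 went from 6.95 to 13.5 and that of cutl-20 from 6.70 to 11.5, and without MH-1 replicate 1 that of cutl-28 went from 7.09 to 4.61. None of the 6 remained called with limma-voom or without MH-1 replicate 1, and cutl-2 was not called with edgeR's robust dispersion (adjusted p = 0.167). Without MH-1 replicate 2, 4 genes of the list were called and cutl-20 was not (adjusted p = 0.0621). Among other genes for extracellular leucine-rich repeat proteins, 0 of 13 tested passed, with a median of 0.36. Here lron-2, lron-4, lron-12 and lron-15 needed the MH-1 libraries to pass the filter. In that list egg-6, a highly expressed eggshell and epithelial gene chosen here after its value was seen, stood at 339 ± 7.66 and 291 ± 21.4 CPM. pan-1 had the smallest p of the list, with a log2 fold change of 0.55 ± 0.12 (adjusted p = 0.0827). Of 3 tested relatives of the lipocalin family, lpr-4 and lpr-6 among them, none passed, with a median of 2.30 and all 3 above 0. Of these, 2 were called with DESeq2 and with no filter on low counts. The median is the value of lpr-4, which had 9 and 12 reads in the OP50 libraries against 69 and 36. Both lpr-4 and lpr-2, with 10 and 24 reads against 24 and 28, needed the MH-1 libraries to pass the filter. That favours a positive sign.

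Partners of the matrix in epithelia gave 2 rises and no fall among 10 tested genes, with a median log2 fold change of 0.26. ptr-4, a patched-related membrane protein needed for apical matrix and molting, rose from 0.930 ± 0.205 to 8.63 ± 6.20 CPM (SD, n = 2; log2 fold change 3.19 ± 0.58). Its fold of 9.14 was 4.56 without MH-1 replicate 1 (adjusted p = 0.0966) and 13.9 without MH-1 replicate 2. sym-2, which like sym-1 was found through its interaction with mec-8, rose from 1.83 ± 0.107 to 8.87 ± 2.96 CPM (log2 fold change 2.27 ± 0.32, adjusted p = 0.0227). Without MH-1 replicate 1 its adjusted p was 0.0643. With limma-voom no gene of this list was called (adjusted p = 0.227 for ptr-4 and 0.0621 for sym-2), and ptr-4 was not called with edgeR's robust dispersion either (adjusted p = 0.0852). Of 9 tested molting genes, mlt-11, a protease inhibitor of the molting matrix, rose by 2.56 ± 0.40 and none fell, with a median of 0.45. Its adjusted p was 0.0844 without MH-1 replicate 1 and 0.197 with edgeR's robust dispersion, and its log2 fold change 3.43 without OP50 replicate 1.

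Marker lists of cells and stages that make or lack this matrix are given beside these values, and their part in the differences of the 10 genes was not tested. Of 12 epidermis markers, 4 rose and none fell, with a median of 0.47. They were the furrow collagen dpy-7 (log2 fold change 3.15 ± 0.49), the collagen sqt-3 (2.36 ± 0.40), the nuclear receptor nhr-25 (1.51 ± 0.17) and the junction protein dlg-1 (0.998 ± 0.10), the last named after its value was seen. Without MH-1 replicate 1, the first 2 of these stood at 2.28 and 1.68. Neither dpy-7 nor sqt-3 was called with limma-voom (adjusted p = 0.161 and 0.0727) or with edgeR's robust dispersion (adjusted p = 0.168 and 0.354), and each of these settings called 2 genes of the list. The summed level of the list was 690 and 629 CPM in the OP50 libraries and 1005 and 848 CPM in the others. Much of that rise came from sqt-3, at 38.7 and 21.6 CPM against 215 and 96.3 CPM. Of the 12 genes, 10 were above 0 and 2 below, rol-6 at -0.46 ± 1.31 and nhr-23 at -0.16 ± 0.09. The epidermal regulator lin-26, likewise named after its value was seen, stood at 0.10 ± 0.07 and did not pass.

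Zygotic embryo markers, read as the stage in which most of this matrix is made, included 2 rises and no fall among 12 tested genes, with a median of 0.53. The hatching protease hch-1 rose by 3.27 ± 0.40 and the pharynx regulator pha-4 by 1.25 ± 0.12 on the log2 scale, and hch-1 stood at 4.05 without OP50 replicate 1. With robust dispersion in edgeR hch-1 was not called (adjusted p = 0.0917), which left 1 gene of the list. The summed level of the list was 131.5 and 114.8 CPM in the OP50 libraries, and 188 and 181 CPM in the others. Much of that rise came from hch-1, at 4.99 and 2.04 CPM against 41.99 and 26.07 CPM, and pha-4. The latter stood at 14.41 and 13.02 CPM against 32.52 and 32.53 CPM. Of the 12 genes, 9 were above 0 and 3 below. Those below were pes-1 at -0.37 ± 0.34, end-1 at -0.17 ± 0.34 and end-3 at -0.12 ± 0.38. med-2 had no read in any library. None of 12 oocyte markers passed, all 12 had a negative log2 fold change (median -0.14), and their sum was 13578 and 12663 CPM against 11908 and 11722 CPM. puf-7 had the smallest p of that list, at -0.25 ± 0.08 (adjusted p = 0.196).

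No gene passed among 8 tested markers of ciliated sensory neurons (median 0.52), where DYF-7 and DEX-1 act, or among 7 tested markers of excretory tubes (median 0.27), where LET-653, LPR-3 and LET-4 act. By smallest p these lists are led by osm-5, at 1.01 ± 0.64 (adjusted p = 0.550), and exc-9, at 0.42 ± 0.24 (adjusted p = 0.498). The value of osm-5 was 0.17 without MH-1 replicate 1. This gene passed the filter on low counts only through the MH-1 libraries, with 10 and 9 reads against 26 and 13. che-11, che-13 and dyf-1, at 0.81, 0.79 and 0.80, also needed the MH-1 libraries to pass, which favours a positive sign. The neuron median of 0.52 includes these genes. The better counted osm-1, osm-3, che-3 and daf-19 stood at -0.13, 0.26, 0.08 and -0.12. Summed levels were 48.1 and 46.5 against 50.3 and 45.6 CPM for the neuron list, and 66.7 and 75.1 against 78.7 and 75.9 CPM for the excretory list. Of 9 tested markers of the adult intestine, none passed and the median was -0.17. Their summed level was 54787 and 55935 CPM against 37019 and 62712 CPM, most of it from vit-2, vit-5 and vit-6. In OP50 replicate 1 these stood at 22256, 10700 and 19765 CPM. Of the 9, 4 had both MH-1 libraries below both OP50 libraries and 1 had both above. Over all 12640 genes tested these numbers were 2729 and 3086. mtl-2 stood at -0.72 ± 0.15 (adjusted p = 0.0801). Of the excretory list, grl-2 and dct-5 had at most 4 reads in any library, and of the neuron list bbs-1 and tax-4 had 0 reads in OP50 replicate 1.

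**Figure D5:**
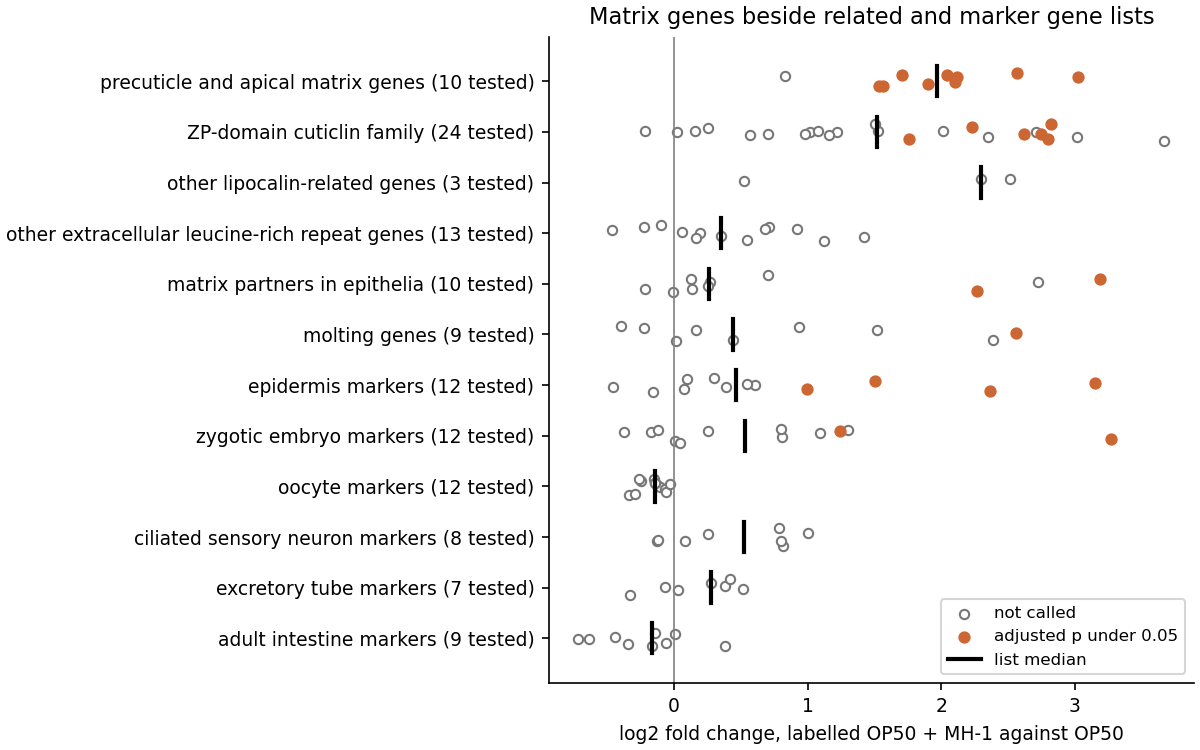
Log2 fold change of each tested gene in the 10 matrix genes and in 11 related or marker lists, with filled points for genes past an adjusted p of 0.05 and a bar at each list's median. The matrix genes have a median of 1.97, the cuticlin family 1.52, the zygotic embryo markers 0.53 and the oocyte markers -0.14. The cuticlin median includes genes that passed the filter only through the MH-1 libraries.

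The 5 genes closest in pattern to the mean of the 10 were searched among 5049 tested genes that carry a class-and-number symbol and average 5 CPM or more. Closeness was the Euclidean distance between centred log2 CPM over the 4 libraries, and 4 points can place many genes near each other. They were dsl-3, which encodes a protein of the Notch ligand class, at a distance of 0.16, fmi-1, a flamingo-type cadherin, at 0.19, and ddr-2, a discoidin domain receptor, at 0.20. pat-9, a zinc finger factor of muscle, and osg-1 followed at 0.25 and 0.26. Of the 10 genes themselves, lpr-3 lay nearest to their mean, at 0.24, and let-653 and lpr-5 farthest, at 1.13 and 1.12. dsl-3 stood at 5.89 and 4.25 CPM against 23.04 and 14.8 CPM, and fmi-1 at 5.38 and 4.36 CPM against 24.3 and 17.4 CPM.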

How the data were processed

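Per the file headers, the authors deposited unnormalised read counts for 46904 genes in each of 4 libraries. Per the submitters' processing notes, tools were featureCounts 2.0.1, STAR 2.7.10a, cutadapt 3.7, Trimmomatic 0.39 and Trim Galore 0.6.7, with build ce11 (WBcel235). The sources used here give neither the strand setting nor the handling of multi-mapping reads. Coordinates are those of the deposited tables; exons and overlaps come from Ensembl release 115 on the same build, where all 10 genes are found as protein-coding with slightly different ends.

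The fit used edgeR 4.0.16 in R 4.3.3 (a filterByExpr filter with minimum count 10 and minimum total 15, TMM, glmQLFit and glmQLFTest with group as the only term), leaving 12640 genes adjusted by Benjamini-Hochberg. The standard error is the log2 fold change divided by the square root of F. CPM use TMM-scaled library sizes, and RPKM divide these by the deposited gene length. With 3 counts as floor, 1 library resolves 0.139 to 0.190 CPM. All pairs of libraries differed beyond sampling noise, with a chi-square of 10.1 or more for each degree of freedom. With 2 libraries a group, no exact permutation test can reach 0.05.

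The 10 genes, the 11 other lists and the rule for named genes (all 10; per list up to 3 called genes by size, or else the 1 with the smallest p; the 5 nearest patterns; neighbours of paired members) were chosen with earlier results of these data known. Of 149 list entries, sym-5 and opt-2 were not found under those names. Alternatives used DESeq2 1.42.0 and limma 3.58.1, other scalings, no filter, robust dispersion, a replicate block and each library left out. Figures were drawn with matplotlib 3.10.9.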

Additional observations from a re-analysis of the deposited data

How the results depend on the processing

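All 10 matrix genes kept a positive log2 fold change under all 11 alternatives, and no scaling moved the median over all tested genes by more than 0.05. The number of the 10 called was 9 with all libraries, 4 with robust dispersion (where noah-1, noah-2, fbn-1, lpr-5 and sym-1 were no longer called), 7 with limma-voom, 8 with DESeq2 size factors, 10 with no filter, and 4 to 9 with 1 library left out. Their median log2 fold change ranged from 1.63 to 2.19 with 1 library left out. Over the whole table, 230 genes were higher and 42 lower. These counts became 815 and 297 with no filter on low counts, 365 and 90 with DESeq2, 135 and 27 with limma-voom, and ranged from 99 to 395 and from 20 to 95 with 1 library left out. The replicate block gave 450 and 109, and left 9 of the 10 genes called. Among named genes that had not passed, it called lpr-6 higher (adjusted p = 0.00745) and mtl-2 of the intestine list lower (adjusted p = 0.0456). The labels give both groups the replicate numbers 1 and 2 but no shared source, and with 2 pairs the correlation of their deviations (0.21) does not establish a pairing. In the 11 lists together, 15 genes were called higher and 0 lower; this was 34 and 4 with no filter, 5 and 0 with limma-voom, and 6 to 20 higher and 0 to 1 lower with 1 library left out. DESeq2 called 1 list gene lower and the replicate block called 2, all of them intestine markers. Levels per length with reference exons moved beyond the spread between replicates for let-653 in the MH-1 libraries, at 3.60 RPKM. A fit that leaves 1 library alone in its group takes the spread from the other group. The causes of these changes were not tested. Depth limits the rarest genes, with 14 to 22 reads for lpr-5 and dyf-7 in the OP50 libraries.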
